A study of Mus musculus with 24 samples.

Results

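The 45 genes described here encode lysosomal hydrolases, the activator proteins that help them, and proteins of the lysosomal membrane, with the subunits of the proton pump left out. They were taken from a fixed list of gene symbols, out of 35968 genes with transcripts in the deposited tables. The list was chosen with earlier results of these data known, so shares of members beside shares of all genes are a description. By role there were 12 proteases, 8 enzymes that trim glycans and glycogen, 7 that degrade glycosaminoglycans, 9 lipid enzymes and activators, and 9 membrane proteins. A filter on low counts was passed by 43 of the 45, among 14577 genes tested, and the cathepsins Ctsk and Ctss were left out by it.

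Lysosomes are acidic organelles in which hydrolases break down proteins, glycans and lipids that arrive by endocytosis and autophagy. Many lysosomal genes are known targets of TFEB, TFE3 and MITF, related transcription factors that bind E-box sequences in their promoters. These factors are held in the cytoplasm when mTORC1 phosphorylates them at the lysosome, a step that needs the Rag GTPases and the FLCN-FNIP complex. KEAP1 and FEM1B are substrate receptors of CUL3 and CUL2 ubiquitin ligases. KEAP1 is known for the turnover of the antioxidant factor NRF2, and FEM1B for the turnover of FNIP1.

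RNA was measured in C2C12 cells, an established line of mouse myoblasts that can be made to differentiate into muscle, here kept undifferentiated and below confluence. No genotype beyond the line is given in the labels. The cells were harvested 48 h after siRNA treatment, in 4 groups of 3 libraries each. In siKeap1 cells Keap1 was depleted, in siFem1b cells Fem1b, in siFem1b/Keap1 cells both genes, and siCont cells received the control siRNA. Each gene was targeted by a single siRNA sequence, so an effect of depleting the target cannot be told apart from another effect of that sequence. The siRNAs against Keap1 and Fem1b are shown because 5 of the lysosomal transcripts hold sites for their seeds in the 3′ UTR. The seed of the control siRNA was not searched. The siRNAs are given 5′ to 3′ as the sense strand, and the capitals mark bases 12 to 18, which a transcript must hold to pair with the guide's seed.
siKeap1: gcgccaauguuGACACGGa
siFem1b: gaagaucagugCAGAAUUa

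Each library was selected for poly(A) RNA and sequenced in 2 runs, and the sums of both runs held between 31883615 and 42980730 estimated counts. Levels are given as CPM, which are counts relative to the total of a library after scaling of library sizes. Keap1 was at 9.99 CPM in siKeap1, 59.2 CPM in siFem1b, 9.38 CPM in siFem1b/Keap1 and 61.8 CPM in siCont libraries. Fem1b was at 102 CPM in siKeap1, 13.2 CPM in siFem1b, 12.7 CPM in siFem1b/Keap1 and 96.9 CPM in siCont libraries, so both targets were low in the groups labelled with their siRNA. The 10 myoblast markers all passed the filter, among them Vim, Des, Myod1 and Cdh15. Replicates 1 and 2 of siKeap1, and replicates 1 and 2 of siFem1b/Keap1, lay as close to each other as repeat sequencing of 1 library. Their chi-square per degree of freedom was 2.47 for siKeap1 and 2.43 for siFem1b/Keap1, within the range of 2.34 to 2.87 between repeat runs, and other replicate pairs reached 17.0. They were kept as separate libraries, and counts with each such pair added and treated as 1 library, an alternative chosen after the data were seen, stand beside the results. The labels do not say whether the libraries of a group came from separate cultures, so p-values measure the spread between these libraries.

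In control cells the lysosomal transcripts spanned a wide range, and a few of them held most of the total. Levels per length are the deposited TPM, which divide by transcript length and lack the scaling of library sizes used for CPM. As mean ± SD of 3 siCont libraries, the tetraspanin Cd63 led with 1681 ± 16.8 TPM. The cysteine protease Ctsl followed with 534 ± 22.2 TPM, the saposin precursor Psap with 517 ± 4.12 TPM and the membrane glycoprotein Lamp1 with 481 ± 12.7 TPM. Next came Ctsb (327 ± 13.4 TPM) and Ctsd (292 ± 4.30 TPM). Most other enzymes ran from Hexa (61.1 ± 2.36 TPM) down to Sgsh (5.32 ± 0.417 TPM). The lowest of the members tested were Idua (2.24 ± 0.186 TPM), Ctsf (1.10 ± 0.234 TPM) and Ctsc (0.231 ± 0.156 TPM). Ctsk and Ctss, cathepsins known best from osteoclasts and from antigen-presenting cells, were near 0, with 0.0802 TPM for Ctsk and 0.0187 TPM for Ctss.

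**Figure D1:**
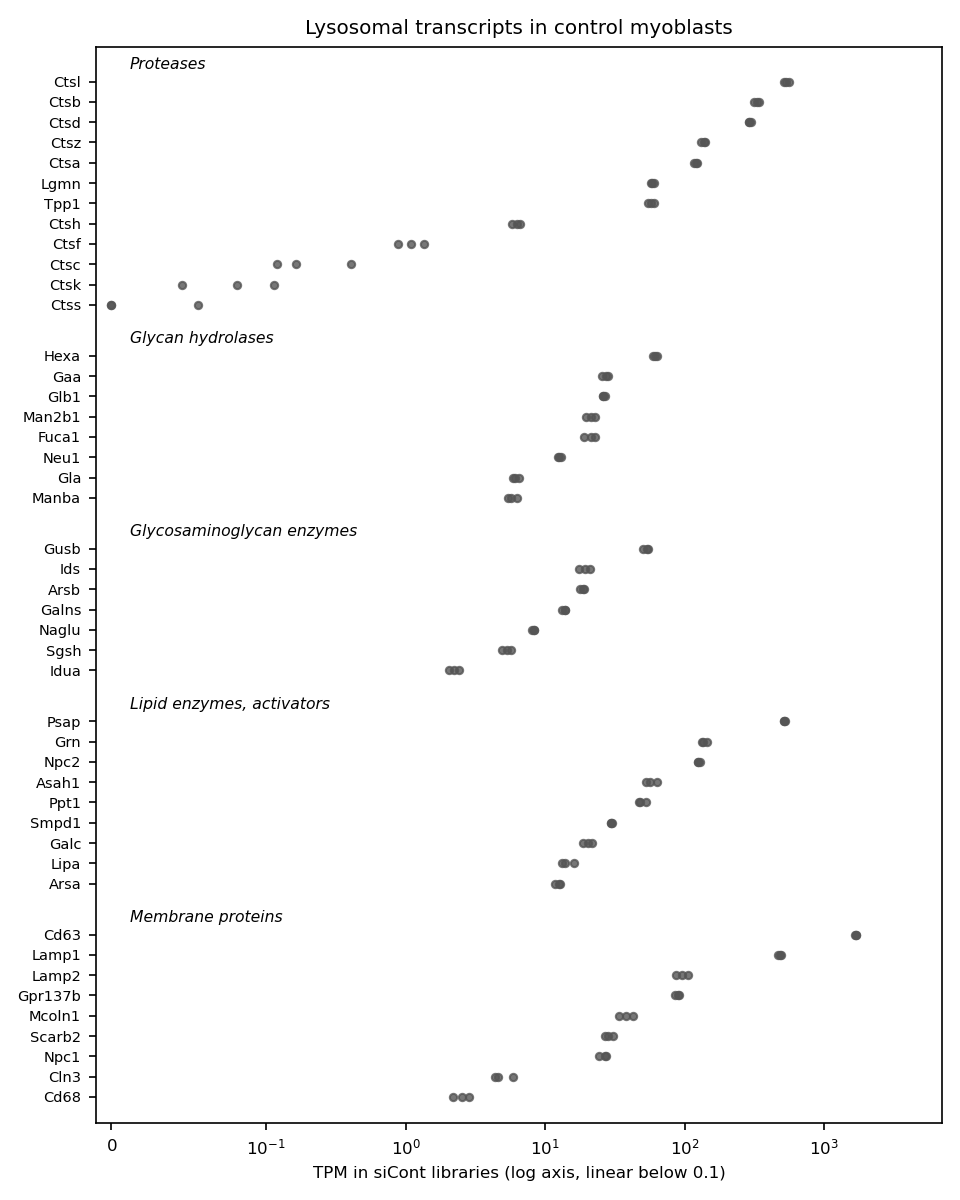
Levels of the 45 lysosomal genes in the 3 siCont libraries, in TPM on an axis that is logarithmic above 0.1 and linear below, grouped by role and ordered by level. Cd63 lies at 1681 TPM, whereas Ctsc, Ctsk and Ctss lie below 1 TPM.

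Summed over all 45 genes, the lysosomal transcripts made up 5427 ± 86.8 TPM in siKeap1, 5815 ± 147 TPM in siFem1b, 6594 ± 53.5 TPM in siFem1b/Keap1 and 5246 ± 44.3 TPM in siCont libraries (SD, n = 3 each). The total was highest in siFem1b/Keap1 cells, where its lowest library (6546 TPM) lay above the highest of siFem1b (5905 TPM). The roles differed in this sum. The glycan hydrolases stood at 202 ± 1.40 TPM in siKeap1, 273 ± 12.6 TPM in siFem1b, 346 ± 4.95 TPM in siFem1b/Keap1 and 181 ± 1.82 TPM in siCont libraries. The proteases stood at 1836 ± 47.7 TPM in siKeap1, 1781 ± 68.9 TPM in siFem1b, 2257 ± 31.6 TPM in siFem1b/Keap1 and 1533 ± 39.4 TPM in siCont libraries. The membrane proteins, most of whose sum is Cd63, stood at 2164 ± 27.3 TPM in siKeap1, 2449 ± 26.3 TPM in siFem1b, 2451 ± 15.7 TPM in siFem1b/Keap1 and 2447 ± 20.7 TPM in siCont libraries. In these unscaled TPM, the sum of the membrane proteins was lower in siKeap1 cells alone. The sums of the proteases and glycan hydrolases were above siCont in every depleted group. These sums are a description and were not tested. Unlike CPM, they lack the scaling of library sizes. Its factors were 0.952 to 0.968 in siCont and 1.040 to 1.045 in siFem1b/Keap1 libraries, so differences between groups are not the same in TPM and CPM. This holds for the near-equal sums of the membrane proteins too.

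Keap1 depletion alone changed the members in both directions. Of the 43 tested, 12 rose and 12 fell in siKeap1 against siCont cells, beside 18.4% of all genes tested that rose and 23.8% that fell (edgeR quasi-likelihood test, Benjamini-Hochberg adjusted p under 0.05 over all genes tested). The median log2 fold change was 0.01 over the members and -0.02 over all genes. Of the proteases 4 of 10 rose and 1 fell, of the glycan hydrolases 4 of 8 rose and 1 fell, and of the glycosaminoglycan enzymes 1 of 7 rose and 3 fell. Of the lipid enzymes and activators 2 of 9 rose and 3 fell, and of the membrane proteins 1 of 9 rose, which was Cd68, and 4 fell. With the close pairs of libraries added, 12 rose and 10 fell.

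Fem1b depletion alone moved the members mostly upward. In siFem1b against siCont cells 25 of 43 rose and 6 fell, beside 30% of all genes that rose and 32.1% that fell, and the median log2 fold change was 0.23 over the members against -0.01 over all genes. The rises include Ctsc, which passed the filter through groups in which it was higher. Glycan hydrolases rose in 7 of 8 cases, and none of the 8 fell. The summed level of 15 genes of muscle differentiation was 505 CPM in siFem1b against 68.3 CPM in siCont libraries. In bulk RNA, a larger number of differentiating cells and more RNA per cell cannot be told apart, and the part of differentiation in the lysosomal changes was not tested here. The close pairs lie in other groups, and with them added the counts were again 25 and 6.

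Double depletion gave the most rises. In siFem1b/Keap1 against siCont cells 36 of 43 members rose and 5 fell, beside 33.8% of all genes that rose and 33.7% that fell, and the median log2 fold change was 0.51 over the members against 0.01 over all genes. A rise of at least 1.5-fold was seen in 18 members (18.2% of all genes) and a fall of that size in 2 (11.2% of all genes). All 8 glycan hydrolases and 9 of 10 tested proteases rose, together with 6 of 7 glycosaminoglycan enzymes, 7 of 9 lipid enzymes and activators and 6 of 9 membrane proteins. Ctsc, which passed the filter through groups in which it was higher, is among these proteases. The members that fell were Lgmn, Ppt1, Npc2, Cd63 and Scarb2, and Galns and Mcoln1 did not pass the test. All 3 siFem1b/Keap1 libraries lay above the other 9 libraries for 24 of the 43 members, beside 12.3% of all genes tested. Scaling by library totals alone moved the median of all genes in this comparison to 0.13, and 37 members then rose and 4 fell, beside 6134 and 3746 genes of all tested (4934 and 4906 with the scaling used here). With the close pairs added, 36 rose and 5 fell. The muscle differentiation genes summed to 305 CPM in siFem1b/Keap1 against 68.3 CPM in siCont libraries, and 9 epithelial markers to 158 CPM in siFem1b/Keap1 against 45.2 CPM in siCont libraries. Their part in the lysosomal changes was not tested.

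**Figure D2:**
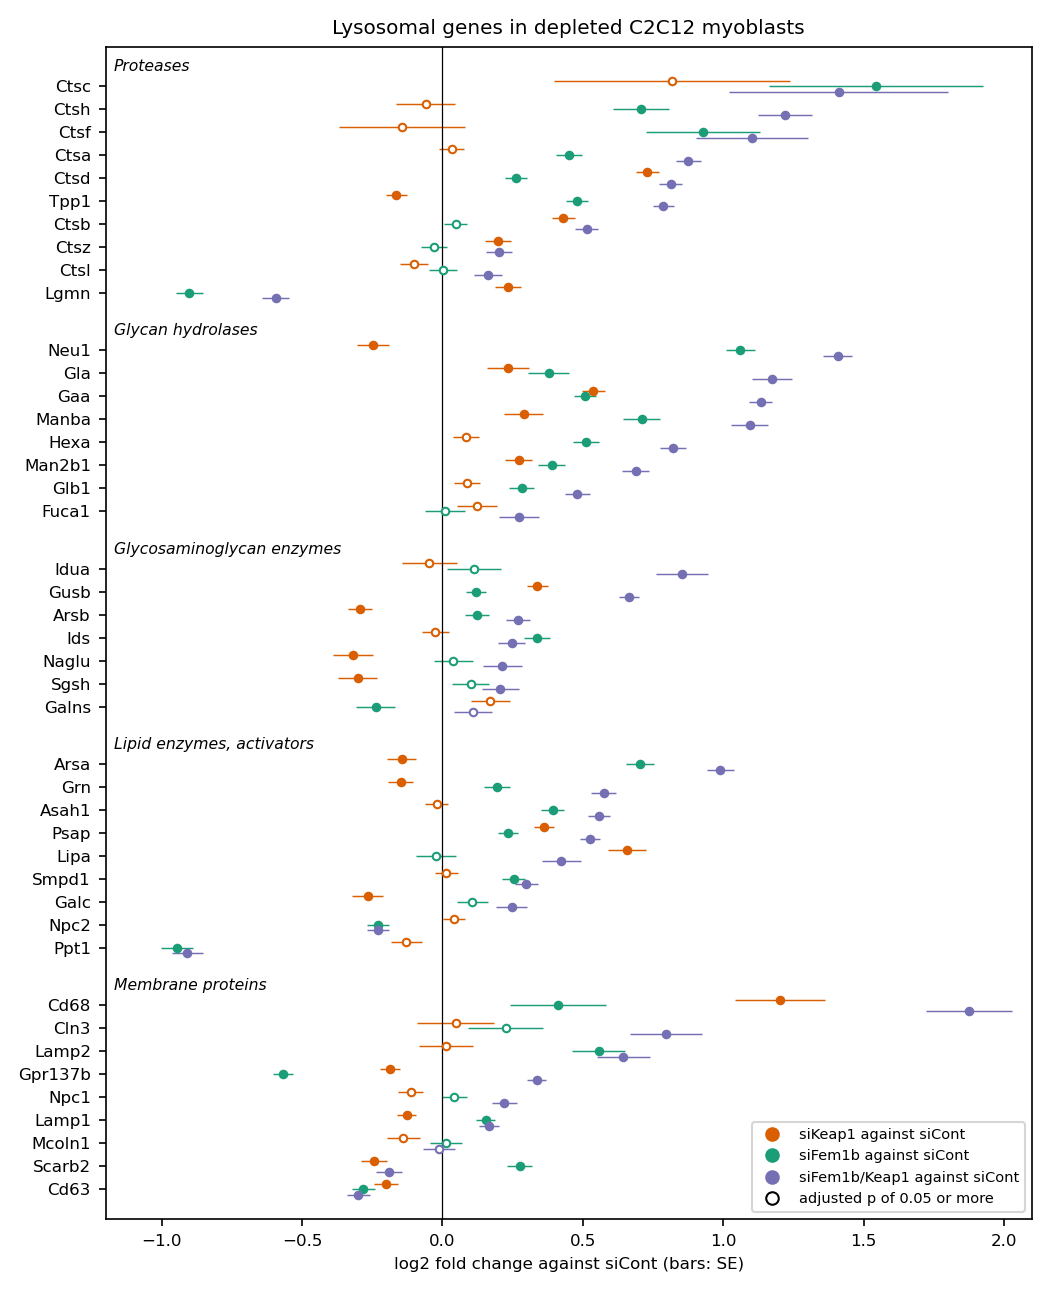
Log2 fold changes of the 43 tested lysosomal genes against siCont in siKeap1, siFem1b and siFem1b/Keap1 cells, with bars for the standard error and open symbols where the adjusted p was 0.05 or more. Most siFem1b/Keap1 points lie to the right of 0, with Neu1 at 1.41 and Cd68 at 1.88, while Lgmn and Ppt1 lie to the left for siFem1b and siFem1b/Keap1.

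The 3 comparisons above share the siCont libraries, so the values below are given side by side. Each is a log2 fold change against siCont with its standard error (SE) from the fit across all 12 libraries.

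Among the proteases, Ctsd, the aspartic protease that lies on chr7:142375911-142388038 (GRCm38), had 640.1, 639 and 672 CPM in siKeap1 libraries and 476, 464 and 471 CPM in siFem1b libraries. Ctsd stood at 671, 684 and 712 CPM in siFem1b/Keap1 libraries, against 381, 414 and 382 CPM in siCont libraries. No library of a depleted group reached down to the siCont range, and its log2 fold change was 0.73 ± 0.04 (adjusted p = 3.9e-11) in siKeap1 cells, 0.26 ± 0.04 (adjusted p = 1.4e-05) in siFem1b cells and 0.81 ± 0.04 (adjusted p = 2.1e-12) in siFem1b/Keap1 cells. Ctsb, a cysteine protease on chr14:63122462-63145923, had 788, 780.5 and 769 CPM in siKeap1 libraries and 585, 608 and 598 CPM in siFem1b libraries. Ctsb stood at 829, 828 and 819.5 CPM in siFem1b/Keap1 libraries, against 549, 617 and 568 CPM in siCont libraries. Its siFem1b libraries overlapped those of siCont, and the log2 fold change was 0.43 ± 0.04 (adjusted p = 6.9e-08) in siKeap1 cells, 0.05 ± 0.04 (adjusted p = 0.33) in siFem1b cells and 0.51 ± 0.04 (adjusted p = 1.5e-09) in siFem1b/Keap1 cells. Ctsa, the carboxypeptidase that also protects the sialidase and beta-galactosidase in a complex, had 138, 136 and 144 CPM in siKeap1 libraries and 191, 176 and 191 CPM in siFem1b libraries. Ctsa stood at 242, 250.3 and 257 CPM in siFem1b/Keap1 libraries, against 133, 144 and 132 CPM in siCont libraries. Here it was the siKeap1 libraries that overlapped siCont, and the log2 fold change was 0.03 ± 0.04 (adjusted p = 0.59) in siKeap1 cells, 0.45 ± 0.04 (adjusted p = 5.4e-08) in siFem1b cells and 0.88 ± 0.04 (adjusted p = 3.1e-12) in siFem1b/Keap1 cells.

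Tpp1, a serine protease that removes tripeptides, had 73.4, 70.2 and 73.0 CPM in siKeap1 libraries and 112, 113 and 113 CPM in siFem1b libraries. Tpp1 stood at 136, 140.2 and 142 CPM in siFem1b/Keap1 libraries, against 78.1, 83.6 and 80.8 CPM in siCont libraries. The siKeap1 libraries were all below siCont and those with siFem1b all above it. For Tpp1 the log2 fold change was -0.16 ± 0.04 (adjusted p = 0.0021) in siKeap1 cells, 0.48 ± 0.04 (adjusted p = 2.9e-09) in siFem1b cells and 0.79 ± 0.04 (adjusted p = 1.6e-12) in siFem1b/Keap1 cells. Lgmn, the asparaginyl endopeptidase that processes cathepsins, was the 1 protease that fell in siFem1b and siFem1b/Keap1 cells against siCont. It had 82.2, 78.5 and 83.5 CPM in siKeap1 libraries and 36.5, 37.2 and 37.6 CPM in siFem1b libraries. Lgmn stood at 46.2, 43.9 and 47.5 CPM in siFem1b/Keap1 libraries, against 66.5, 74.4 and 67.0 CPM in siCont libraries. It rose in siKeap1 cells and was 1.87-fold lower in siFem1b cells. For Lgmn the log2 fold change was 0.23 ± 0.05 (adjusted p = 0.00052) in siKeap1 cells, -0.90 ± 0.05 (adjusted p = 1.4e-11) in siFem1b cells and -0.59 ± 0.05 (adjusted p = 2.5e-09) in siFem1b/Keap1 cells. Ctsh, an aminopeptidase of low level here, had 5.27, 5.04 and 4.36 CPM in siKeap1 libraries and 8.73, 7.61 and 8.57 CPM in siFem1b libraries. Ctsh stood at 10.5, 12.6 and 12.5 CPM in siFem1b/Keap1 libraries, against 4.90, 5.35 and 5.04 CPM in siCont libraries, and all libraries with siFem1b lay above all others. Its log2 fold change was -0.06 ± 0.10 (adjusted p = 0.69) in siKeap1 cells, 0.71 ± 0.10 (adjusted p = 4.4e-06) in siFem1b cells and 1.22 ± 0.10 (adjusted p = 1.5e-09) in siFem1b/Keap1 cells.

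The remaining proteases moved less or were scarce. Ctsl, the most abundant of them, had log2 fold changes of -0.10 ± 0.05 (adjusted p = 0.12) in siKeap1 cells, 0.00 ± 0.05 (adjusted p = 0.95) in siFem1b cells and 0.16 ± 0.05 (adjusted p = 0.0071) in siFem1b/Keap1 cells, and Ctsz, a carboxypeptidase, one of 0.20 ± 0.05 (adjusted p = 0.0019) in siKeap1 cells, -0.03 ± 0.05 (adjusted p = 0.61) in siFem1b cells and 0.20 ± 0.05 (adjusted p = 0.00083) in siFem1b/Keap1 cells. Ctsc averaged 0.256 CPM in siKeap1, 0.431 CPM in siFem1b, 0.391 CPM in siFem1b/Keap1 and 0.147 CPM in siCont libraries, and it passed the filter through the groups in which it was higher. Ctsf averaged 0.752 CPM in siKeap1, 1.59 CPM in siFem1b, 1.79 CPM in siFem1b/Keap1 and 0.824 CPM in siCont libraries. Ctsf rose in siFem1b and siFem1b/Keap1 cells. Ctsc was also called higher there, from 16 counts over the 3 siCont libraries. That call is no support for a rise, since Ctsc passed the filter through these groups. Ctsk stayed at or below 0.279 CPM and Ctss at or below 0.208 CPM in every library.

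Among the glycan hydrolases, Neu1, the sialidase on chr17:34931253-34935953, had 18.2, 17.7 and 18.7 CPM in siKeap1 libraries and 45.0, 46.5 and 44.0 CPM in siFem1b libraries. Neu1 stood at 54.8, 57.3 and 60.5 CPM in siFem1b/Keap1 libraries, against 20.999, 23.0 and 21.1 CPM in siCont libraries. All 3 siKeap1 libraries lay below siCont, and the libraries with siFem1b lay above it. The log2 fold change was -0.25 ± 0.06 (adjusted p = 0.0014) in siKeap1 cells, 1.06 ± 0.05 (adjusted p = 3.4e-12) in siFem1b cells and 1.41 ± 0.05 (adjusted p = 3.7e-14) in siFem1b/Keap1 cells, and in siFem1b/Keap1 cells this is 2.65-fold the siCont level. Gaa, the acid alpha-glucosidase that degrades glycogen and is deficient in Pompe disease, had 86.9, 90.7 and 86.5 CPM in siKeap1 libraries and 85.6, 86.1 and 87.1 CPM in siFem1b libraries. Gaa stood at 127, 135 and 137 CPM in siFem1b/Keap1 libraries, against 59.7, 61.6 and 60.7 CPM in siCont libraries. Its siKeap1 and siFem1b libraries lay at about the same level, above siCont and below siFem1b/Keap1. For Gaa the log2 fold change was 0.54 ± 0.04 (adjusted p = 3.4e-09) in siKeap1 cells, 0.51 ± 0.04 (adjusted p = 2.7e-09) in siFem1b cells and 1.13 ± 0.04 (adjusted p = 2.1e-14) in siFem1b/Keap1 cells.

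Gla, the alpha-galactosidase deficient in Fabry disease, had 16.2, 14.7 and 13.9 CPM in siKeap1 libraries and 15.6, 18.1 and 15.8 CPM in siFem1b libraries. Gla stood at 27.3, 29.9 and 28.6 CPM in siFem1b/Keap1 libraries, against 12.1, 12.6 and 13.3 CPM in siCont libraries. The log2 fold change was 0.23 ± 0.08 (adjusted p = 0.017) in siKeap1 cells, 0.38 ± 0.07 (adjusted p = 0.0002) in siFem1b cells and 1.17 ± 0.07 (adjusted p = 4e-11) in siFem1b/Keap1 cells, with the siFem1b/Keap1 libraries well above those of both single depletions. Hexa, a subunit of beta-hexosaminidase, had 79.4, 79.3 and 81.7 CPM in siKeap1 libraries and 105, 109 and 109 CPM in siFem1b libraries. Hexa stood at 129, 133 and 139 CPM in siFem1b/Keap1 libraries, against 71.6, 81.8 and 73.7 CPM in siCont libraries, and the siKeap1 and siCont libraries overlapped. Its log2 fold change was 0.08 ± 0.05 (adjusted p = 0.17) in siKeap1 cells, 0.51 ± 0.05 (adjusted p = 2e-08) in siFem1b cells and 0.82 ± 0.05 (adjusted p = 1.5e-11) in siFem1b/Keap1 cells. Man2b1, an alpha-mannosidase, had 59.9, 57.4 and 58.8 CPM in siKeap1 libraries and 61.1, 62.8 and 67.3 CPM in siFem1b libraries. Man2b1 stood at 76.4, 75.6 and 83.1 CPM in siFem1b/Keap1 libraries, against 50.1, 48.5 and 47.2 CPM in siCont libraries, and its 3 depleted groups all lay above siCont. The log2 fold change of Man2b1 was 0.27 ± 0.05 (adjusted p = 0.00015) in siKeap1 cells, 0.39 ± 0.05 (adjusted p = 9.8e-07) in siFem1b cells and 0.69 ± 0.05 (adjusted p = 2.5e-10) in siFem1b/Keap1 cells. Manba, a beta-mannosidase, reached 1.09 in siFem1b/Keap1 cells, Glb1, the beta-galactosidase, 0.48, and Fuca1, the alpha-fucosidase, 0.27. Fuca1 did not pass the test in siKeap1 (0.12, adjusted p = 0.19) or siFem1b cells (0.01, adjusted p = 0.92).

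**Figure D3:**
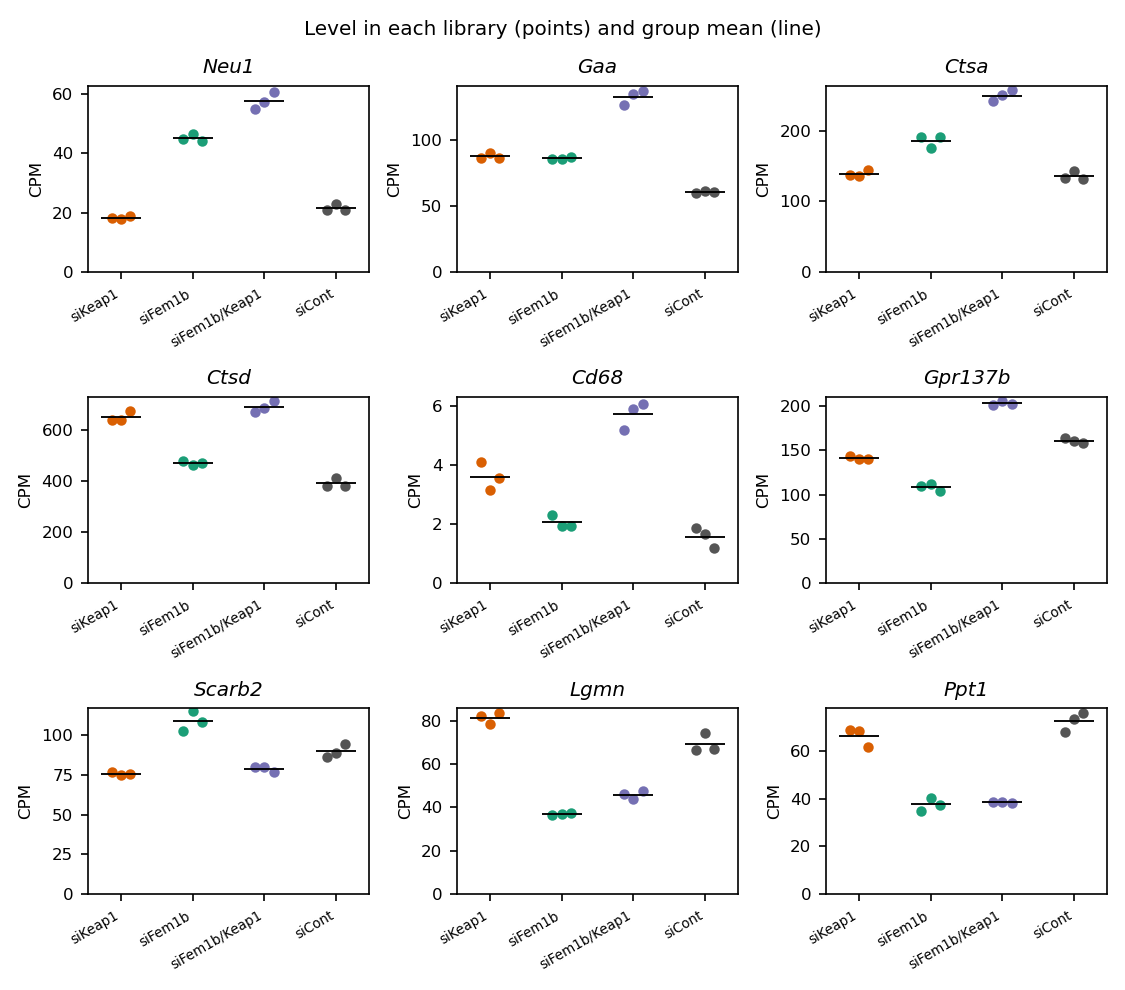
CPM of 9 lysosomal genes in each of the 12 libraries, with points for libraries and a line for the group mean. Neu1 and Gaa are highest in siFem1b/Keap1 libraries, Gpr137b is low in siFem1b and high in siFem1b/Keap1 libraries, and Lgmn and Ppt1 are low wherever siFem1b was used.

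The glycosaminoglycan enzymes rose less, and several of them were lower in siKeap1 cells. Gusb, the beta-glucuronidase, had 100.2, 102 and 103 CPM in siKeap1 libraries and 87.6, 86.2 and 88.4 CPM in siFem1b libraries. Gusb stood at 125, 128 and 130.3 CPM in siFem1b/Keap1 libraries, against 79.4, 80.3 and 81.9 CPM in siCont libraries. It lay above siCont in every depleted library. For Gusb the log2 fold change was 0.34 ± 0.04 (adjusted p = 3.7e-07) in siKeap1 cells, 0.12 ± 0.04 (adjusted p = 0.0079) in siFem1b cells and 0.67 ± 0.04 (adjusted p = 6.8e-12) in siFem1b/Keap1 cells. Arsb, the arylsulfatase that acts on dermatan and chondroitin sulfate, had 40.8, 42.1 and 40.0 CPM in siKeap1 libraries and 55.8, 55.5 and 52.9 CPM in siFem1b libraries. Arsb stood at 62.5, 61.0 and 58.0 CPM in siFem1b/Keap1 libraries, against 49.981, 50.1 and 50.7 CPM in siCont libraries. Its siKeap1 libraries were the lowest and its siFem1b/Keap1 libraries the highest. For Arsb the log2 fold change was -0.29 ± 0.04 (adjusted p = 1.8e-05) in siKeap1 cells, 0.12 ± 0.04 (adjusted p = 0.017) in siFem1b cells and 0.27 ± 0.04 (adjusted p = 1.6e-05) in siFem1b/Keap1 cells. Naglu, which removes N-acetylglucosamine from heparan sulfate, had 10.4, 10.6 and 10.8 CPM in siKeap1 libraries and 13.3, 12.998 and 14.4 CPM in siFem1b libraries. Naglu stood at 14.6, 14.6 and 16.8 CPM in siFem1b/Keap1 libraries, against 13.043, 13.9 and 12.7 CPM in siCont libraries. The siFem1b libraries overlapped siCont, and the log2 fold change was -0.32 ± 0.07 (adjusted p = 0.0014) in siKeap1 cells, 0.04 ± 0.07 (adjusted p = 0.65) in siFem1b cells and 0.21 ± 0.07 (adjusted p = 0.011) in siFem1b/Keap1 cells.

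Idua, the alpha-iduronidase, had 4.37, 4.62 and 4.02 CPM in siKeap1 libraries and 4.50, 5.08 and 4.97 CPM in siFem1b libraries. Idua stood at 7.80, 8.23 and 8.27 CPM in siFem1b/Keap1 libraries, against 4.23, 4.90 and 4.35 CPM in siCont libraries. Both single depletions overlapped siCont while all siFem1b/Keap1 libraries lay above. For Idua the log2 fold change was -0.05 ± 0.10 (adjusted p = 0.74) in siKeap1 cells, 0.11 ± 0.10 (adjusted p = 0.33) in siFem1b cells and 0.85 ± 0.09 (adjusted p = 1.3e-07) in siFem1b/Keap1 cells. Ids, the iduronate sulfatase, had 56.0, 59.1 and 54.6 CPM in siKeap1 libraries and 76.2, 73.5 and 68.3 CPM in siFem1b libraries. Ids stood at 67.0, 69.4 and 68.4 CPM in siFem1b/Keap1 libraries, against 57.5, 55.0 and 59.9 CPM in siCont libraries, and rose with siFem1b whether or not siKeap1 was added. Its log2 fold change was -0.02 ± 0.05 (adjusted p = 0.72) in siKeap1 cells, 0.34 ± 0.05 (adjusted p = 5.4e-06) in siFem1b cells and 0.25 ± 0.05 (adjusted p = 0.00015) in siFem1b/Keap1 cells. Galns, a galactosamine sulfatase, had 25.4, 24.9 and 26.5 CPM in siKeap1 libraries and 20.6, 16.9 and 20.2 CPM in siFem1b libraries. Galns stood at 23.6, 23.5 and 26.6 CPM in siFem1b/Keap1 libraries, against 22.3, 22.9 and 23.0 CPM in siCont libraries, and against siCont it changed in siFem1b cells, by -0.24 ± 0.07 (adjusted p = 0.0064). That fall no longer passed the test without siFem1b replicate 2, where it was -0.14, or with library totals alone, where it was also -0.14. Sgsh, the heparan sulfamidase, had log2 fold changes of -0.30 ± 0.07 (adjusted p = 0.0015) in siKeap1 cells, 0.10 ± 0.07 (adjusted p = 0.2) in siFem1b cells and 0.21 ± 0.07 (adjusted p = 0.01) in siFem1b/Keap1 cells.

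Among the lipid enzymes and activators, Arsa, which desulfates sulfatides, had 20.2, 21.4 and 22.1 CPM in siKeap1 libraries and 37.6, 38.6 and 38.9 CPM in siFem1b libraries. Arsa stood at 45.1, 46.8 and 48.4 CPM in siFem1b/Keap1 libraries, against 22.8, 23.4 and 24.4 CPM in siCont libraries. The siKeap1 libraries lay below siCont and the libraries with siFem1b above it. For Arsa the log2 fold change was -0.15 ± 0.05 (adjusted p = 0.03) in siKeap1 cells, 0.70 ± 0.05 (adjusted p = 4.7e-10) in siFem1b cells and 0.99 ± 0.05 (adjusted p = 2.1e-12) in siFem1b/Keap1 cells. Grn, progranulin, had 181, 181 and 182 CPM in siKeap1 libraries and 233, 220.2 and 237 CPM in siFem1b libraries. Grn stood at 291, 298 and 309 CPM in siFem1b/Keap1 libraries, against 193, 217 and 193 CPM in siCont libraries. Its log2 fold change was -0.15 ± 0.05 (adjusted p = 0.013) in siKeap1 cells, 0.20 ± 0.05 (adjusted p = 0.0011) in siFem1b cells and 0.57 ± 0.05 (adjusted p = 1.7e-09) in siFem1b/Keap1 cells, again with the siKeap1 libraries lowest. Psap, the precursor of the saposins that present lipids to their enzymes, had 1151, 1148 and 1124 CPM in siKeap1 libraries and 1029, 1037 and 1066 CPM in siFem1b libraries. Psap stood at 1282, 1281 and 1273 CPM in siFem1b/Keap1 libraries, against 859.7, 929 and 876 CPM in siCont libraries. It was above siCont in all depleted libraries. For Psap the log2 fold change was 0.36 ± 0.04 (adjusted p = 1.9e-07) in siKeap1 cells, 0.23 ± 0.04 (adjusted p = 1.9e-05) in siFem1b cells and 0.53 ± 0.04 (adjusted p = 2.8e-10) in siFem1b/Keap1 cells. Lipa, the acid lipase that hydrolyses cholesteryl esters, had 43.1, 45.3 and 41.7 CPM in siKeap1 libraries and 25.7, 29.4 and 26.0 CPM in siFem1b libraries. Lipa stood at 38.5, 39.0 and 32.9 CPM in siFem1b/Keap1 libraries, against 26.3, 26.7 and 29.4 CPM in siCont libraries. All libraries with siKeap1 lay above all those without it. For Lipa the log2 fold change was 0.66 ± 0.07 (adjusted p = 3.5e-07) in siKeap1 cells, -0.02 ± 0.07 (adjusted p = 0.8) in siFem1b cells and 0.42 ± 0.07 (adjusted p = 2.6e-05) in siFem1b/Keap1 cells.

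Asah1, the acid ceramidase, had 94.3, 94.2 and 92.9 CPM in siKeap1 libraries and 123, 129.7 and 122 CPM in siFem1b libraries. Asah1 stood at 139.5, 143 and 138 CPM in siFem1b/Keap1 libraries, against 90.8, 95.9 and 98.7 CPM in siCont libraries. The siKeap1 libraries overlapped siCont, and the log2 fold change was -0.02 ± 0.04 (adjusted p = 0.72) in siKeap1 cells, 0.39 ± 0.04 (adjusted p = 7.8e-08) in siFem1b cells and 0.56 ± 0.04 (adjusted p = 3.8e-10) in siFem1b/Keap1 cells. Galc, the galactosylceramidase, had 36.6, 38.9 and 37.8 CPM in siKeap1 libraries and 46.8, 51.6 and 48.6 CPM in siFem1b libraries. Galc stood at 53.8, 57.4 and 50.6 CPM in siFem1b/Keap1 libraries, against 44.9, 43.1 and 48.3 CPM in siCont libraries, and its siKeap1 libraries were the lowest. Its log2 fold change was -0.27 ± 0.06 (adjusted p = 0.00073) in siKeap1 cells, 0.11 ± 0.05 (adjusted p = 0.1) in siFem1b cells and 0.25 ± 0.05 (adjusted p = 0.00059) in siFem1b/Keap1 cells. Smpd1, the acid sphingomyelinase, had values of 0.01 in siKeap1 cells, where it did not pass the test, 0.25 in siFem1b cells and 0.30 in siFem1b/Keap1 cells. Ppt1, the thioesterase that removes palmitate from proteins, ran the other way, with 68.7, 68.1 and 61.6 CPM in siKeap1 libraries and 35.0, 40.3 and 37.5 CPM in siFem1b libraries. Ppt1 stood at 38.7, 38.7 and 38.2 CPM in siFem1b/Keap1 libraries, against 67.8, 73.2 and 75.8 CPM in siCont libraries. Every library with siFem1b lay far below every library without it. For Ppt1 the log2 fold change was -0.13 ± 0.05 (adjusted p = 0.069) in siKeap1 cells, -0.94 ± 0.06 (adjusted p = 5.3e-11) in siFem1b cells and -0.91 ± 0.06 (adjusted p = 5.7e-11) in siFem1b/Keap1 cells. Npc2, the soluble cholesterol carrier, also fell with siFem1b. For Npc2 the log2 fold change was 0.04 ± 0.04 (adjusted p = 0.42) in siKeap1 cells, -0.23 ± 0.04 (adjusted p = 5.4e-05) in siFem1b cells and -0.23 ± 0.04 (adjusted p = 4.5e-05) in siFem1b/Keap1 cells.

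Among the membrane proteins, Cd68, macrosialin, a heavily glycosylated protein known best from macrophages, had 4.09, 3.14 and 3.54 CPM in siKeap1 libraries and 2.31, 1.92 and 1.95 CPM in siFem1b libraries. Cd68 stood at 5.19, 5.89 and 6.05 CPM in siFem1b/Keap1 libraries, against 1.85, 1.66 and 1.17 CPM in siCont libraries. This is a low level, and the log2 fold change was 1.20 ± 0.16 (adjusted p = 5.9e-06) in siKeap1 cells, 0.41 ± 0.17 (adjusted p = 0.043) in siFem1b cells and 1.88 ± 0.15 (adjusted p = 2.6e-09) in siFem1b/Keap1 cells. Of 18 myeloid markers, 4 (Adgre1, C1qa, C1qb and C1qc) were at 0 in all libraries, 14 stayed under 1 CPM in all libraries and 5 passed the filter. Csf1r (3.66-fold), Cx3cr1 (2.62-fold) and Cd14 (1.34-fold) were higher in siKeap1 than in siCont cells, and Cd74 (9-fold), Mrc1 (1.42-fold) and Cd14 (1.38-fold) were higher in siFem1b/Keap1 than in siCont cells. Of these, Csf1r averaged 0.962 CPM in siKeap1 against 0.258 CPM in siCont libraries, and Cd74 1.25 CPM in siFem1b/Keap1 against 0.138 CPM in siCont libraries. Cx3cr1 averaged 0.356 CPM in siKeap1 against 0.130 CPM in siCont libraries. Cx3cr1 and Cd74 passed the filter through groups in which they were higher, so their calls are no support for a rise. The summed level of the 18 myeloid markers, most of it Cd14, was between 15.9 and 16.5 CPM in siKeap1, 11.9 and 12.4 CPM in siFem1b, 16.6 and 17.8 CPM in siFem1b/Keap1 and 11.1 and 12.2 CPM in siCont libraries. Their part in the level of Cd68 was not tested.

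Gpr137b, a lysosomal membrane protein linked to mTORC1 control, on chr13:13357620-13394014, had 144, 140.4 and 141 CPM in siKeap1 libraries and 109, 112 and 105 CPM in siFem1b libraries. Gpr137b stood at 201, 205 and 203 CPM in siFem1b/Keap1 libraries, against 164, 161 and 158 CPM in siCont libraries. No library of any group overlapped with those of another, and the log2 fold change was -0.19 ± 0.04 (adjusted p = 0.00028) in siKeap1 cells, -0.57 ± 0.04 (adjusted p = 9.4e-11) in siFem1b cells and 0.34 ± 0.04 (adjusted p = 8.1e-08) in siFem1b/Keap1 cells. Scarb2, the receptor that brings beta-glucocerebrosidase to lysosomes, had 76.8, 75.3 and 75.6 CPM in siKeap1 libraries and 103, 115 and 108 CPM in siFem1b libraries. Scarb2 stood at 79.7, 80.0 and 76.8 CPM in siFem1b/Keap1 libraries, against 86.1, 89.1 and 94.5 CPM in siCont libraries. It was highest in the siFem1b libraries. For Scarb2 the log2 fold change was -0.24 ± 0.05 (adjusted p = 0.00026) in siKeap1 cells, 0.28 ± 0.05 (adjusted p = 3.2e-05) in siFem1b cells and -0.19 ± 0.05 (adjusted p = 0.0012) in siFem1b/Keap1 cells. Cd63 had 834, 804 and 845 CPM in siKeap1 libraries and 799.5, 749 and 799 CPM in siFem1b libraries. Cd63 stood at 763, 759.6 and 796 CPM in siFem1b/Keap1 libraries, against 917, 999.6 and 937 CPM in siCont libraries. It was the member whose siCont libraries lay above all others. For Cd63 the log2 fold change was -0.20 ± 0.04 (adjusted p = 0.00064) in siKeap1 cells, -0.28 ± 0.04 (adjusted p = 9.1e-06) in siFem1b cells and -0.30 ± 0.04 (adjusted p = 3.3e-06) in siFem1b/Keap1 cells.

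Lamp1 had 621, 601 and 632 CPM in siKeap1 libraries and 768, 750.2 and 734 CPM in siFem1b libraries. Lamp1 stood at 753, 759 and 760.0 CPM in siFem1b/Keap1 libraries, against 662, 683 and 681 CPM in siCont libraries. For Lamp1 the log2 fold change was -0.13 ± 0.03 (adjusted p = 0.0061) in siKeap1 cells, 0.15 ± 0.03 (adjusted p = 0.0008) in siFem1b cells and 0.17 ± 0.03 (adjusted p = 0.00033) in siFem1b/Keap1 cells. Lamp1 was lowest in siKeap1 libraries and overlapped between siFem1b and siFem1b/Keap1 libraries. Npc1, the membrane cholesterol transporter, had 83.4, 83.9 and 76.8 CPM in siKeap1 libraries and 87.3, 93.9 and 90.4 CPM in siFem1b libraries. Npc1 stood at 103, 107 and 98.1 CPM in siFem1b/Keap1 libraries, against 88.1, 87.4 and 88.3 CPM in siCont libraries. The log2 fold change of Npc1 was -0.11 ± 0.04 (adjusted p = 0.051) in siKeap1 cells, 0.04 ± 0.04 (adjusted p = 0.44) in siFem1b cells and 0.22 ± 0.04 (adjusted p = 0.00022) in siFem1b/Keap1 cells. Lamp2 averaged 172 CPM in siKeap1, 251 CPM in siFem1b, 267 CPM in siFem1b/Keap1 and 171 CPM in siCont libraries. For Lamp2 the log2 fold change was 0.01 ± 0.10 (adjusted p = 0.93) in siKeap1 cells, 0.56 ± 0.09 (adjusted p = 0.00033) in siFem1b cells and 0.64 ± 0.09 (adjusted p = 8.8e-05) in siFem1b/Keap1 cells. Cln3 rose in siFem1b/Keap1 cells (0.80 ± 0.13, adjusted p = 2.1e-05) at a mean of 4.03 CPM against 2.33 CPM in siCont libraries. Mcoln1, the lysosomal calcium channel, was the member outside the threshold in all 6 comparisons, with 31.3, 32.6 and 32.7 CPM in siKeap1 libraries and 34.5, 35.6 and 37.4 CPM in siFem1b libraries. Mcoln1 stood at 33.9, 33.4 and 38.3 CPM in siFem1b/Keap1 libraries, against 35.9, 37.3 and 33.4 CPM in siCont libraries. Its log2 fold changes against siCont were -0.14 with siKeap1, 0.01 with siFem1b and -0.01 with both.

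Adding siFem1b to siKeap1 and adding siKeap1 to siFem1b each raised most of the members. In siFem1b/Keap1 against siKeap1 cells 30 of 43 rose and 5 fell, beside 32% and 31.6% of all genes, with a median log2 fold change of 0.51. Neu1 was 3.15-fold higher in this comparison, with 1.66 ± 0.05 (adjusted p = 6.9e-15), Arsa 2.2-fold with 1.14 ± 0.05 (adjusted p = 5.1e-13) and Tpp1 1.93-fold with 0.95 ± 0.04 (adjusted p = 1.9e-13). The 5 that fell were Lgmn, Ppt1, Npc2, Lipa and Cd63, the last by 0.10 on the log2 scale with an adjusted p of 0.045. With library totals alone 35 rose and 3 fell, and with the close pairs added 30 rose and 4 fell.

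In siFem1b/Keap1 against siFem1b cells 30 rose and 1 fell, beside 21.3% and 21.8% of all genes, with a median log2 fold change of 0.29 over the members and 0.01 over all genes. Cd68 was 2.76-fold higher (1.46 ± 0.15, adjusted p = 1.8e-07), Gpr137b 1.87-fold (0.90 ± 0.04, adjusted p = 5.6e-13), Gla 1.74-fold (0.80 ± 0.07, adjusted p = 3.2e-08) and Gaa 1.54-fold (0.62 ± 0.04, adjusted p = 3.8e-10). Scarb2 was the member that fell, by 0.46 on the log2 scale with an adjusted p of 1.4e-07, and 2 members fell when siFem1b replicate 3 was left out. The 15 genes of muscle differentiation had a summed level of 305 CPM in siFem1b/Keap1 against 505 CPM in siFem1b libraries. Ttn, at 207 CPM, was the largest part of the siFem1b sum. Of the 15, 14 fell and 1 rose between these groups, and the riser was Acta1 (2.06-fold, adjusted p = 3e-11). Myog, the myogenin gene, averaged 0.0367 CPM in siKeap1, 59.3 CPM in siFem1b, 4.97 CPM in siFem1b/Keap1 and 1.57 CPM in siCont libraries, and the muscle creatine kinase gene Ckm averaged 0.237 CPM in siKeap1, 2.59 CPM in siFem1b, 0.584 CPM in siFem1b/Keap1 and 0.347 CPM in siCont libraries. The part of differentiation in this comparison was not tested either. With the close pairs added, 29 members rose and 1 fell.

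The interaction tested whether the effect of siKeap1 was the same with and without siFem1b, as the log2 difference of siFem1b/Keap1 from siFem1b less that of siKeap1 from siCont. A positive value means that the double depletion lay above the sum of the single ones. Of 43 members, 18 lay above the sum and 2 below, beside 6.11% and 5.32% of all genes, with a median of 0.18 over the members and 0.02 over all genes. Gpr137b departed most among those called, at 1.09 ± 0.05 (adjusted p = 8.7e-11), since siKeap1 lowered it without siFem1b and raised it with it. Neu1 (0.60 ± 0.07, adjusted p = 2.4e-05), Grn (0.53 ± 0.06, adjusted p = 1.8e-05), Tpp1 (0.47 ± 0.05, adjusted p = 9.7e-06), Arsb (0.44 ± 0.06, adjusted p = 6.8e-05) and Arsa (0.43 ± 0.07, adjusted p = 0.00037) behaved alike, each lower with siKeap1 alone and higher when siKeap1 was added to siFem1b. Idua was at 0.79 ± 0.13 (adjusted p = 0.00059) and Gla at 0.56 ± 0.10 (adjusted p = 0.0011). By contrast Gaa (0.09 ± 0.06, adjusted p = 0.37), Psap (-0.07 ± 0.05, adjusted p = 0.45), Man2b1 (0.03 ± 0.07, adjusted p = 0.85) and Manba (0.10 ± 0.09, adjusted p = 0.58) did not depart from the sum beyond the threshold.

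The members below the sum were Scarb2 (-0.22 ± 0.06, adjusted p = 0.033) and Ctsd (-0.18 ± 0.06, adjusted p = 0.047). Their count was 0 with the close pairs added, when 15 members lay above the sum. It was 0 or 1 without any single library other than siFem1b replicates 2 and 3 and siFem1b/Keap1 replicate 3, so both calls lie near the threshold. The call of Hexa (0.23 ± 0.07, adjusted p = 0.032) was likewise lost without 9 of the 12 libraries in turn and with the close pairs added.

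**Figure D4:**
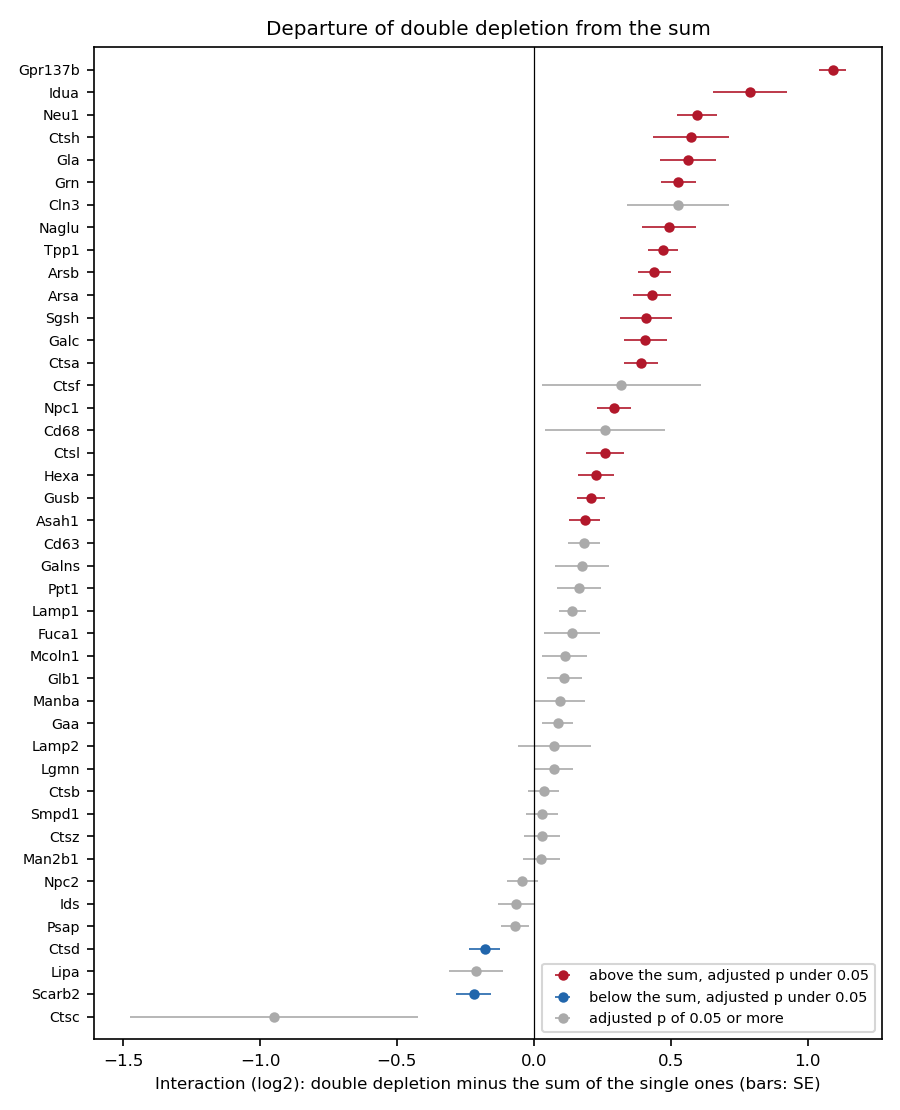
Interaction of the 43 tested lysosomal genes on the log2 scale, with bars for the standard error, red for values above 0 and blue for values below 0 at an adjusted p under 0.05. Gpr137b stands apart at 1.09, most members lie between 0 and 0.8, and Ctsd and Scarb2 are the called values below 0.

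The promoters are shown because TFEB, TFE3 and MITF are known to bind E-box sequences at lysosomal genes. Windows from 250 bases before to 50 bases after an annotated start were taken from RefSeq (GRCm38.p6) and matched 39 of the 45 members by symbol. On either strand the letters TCACGTG, which contain the E-box CACGTG, were found for 12 of 39 members (30.8%), beside 6.51% of 10808 tested genes with such a window and 3.77% of all 32851 windows. The shorter CACGTG was found for 14 members (35.9%, beside 11.2% of tested genes) and TCATGTG for 7 (17.9%, beside 2.69%). Ctsk and Ctss, which did not pass the filter, are among the 39 members, unlike the tested genes beside them. Ctss held TCATGTG, so 6 members with these letters were tested. TGACNNNGC, the core of the antioxidant response element that NRF2 binds, was found for 9 members (23.1%, beside 16.3%). A gene with several windows counted as holding the letters where any window did. The 12 with TCACGTG were Ctsa, Ctsd, Lgmn, Gaa, Gla, Glb1, Naglu, Sgsh, Arsa, Lamp1, Mcoln1 and Cln3.

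The windows of 4 of these are given 5′ to 3′ on the gene's strand, with the matches of these E-box letters on either strand in capitals. Ctsa (chr2:164833523-164833822, plus strand) and Gla (chrX:134600956-134601255, minus strand) rose in siFem1b/Keap1 cells, Lgmn (chr12:102439043-102439342, minus strand, the downstream of its 2 annotated starts) fell, and Mcoln1 (chr8:3500269-3500568, plus strand) did not pass the test.
Ctsa: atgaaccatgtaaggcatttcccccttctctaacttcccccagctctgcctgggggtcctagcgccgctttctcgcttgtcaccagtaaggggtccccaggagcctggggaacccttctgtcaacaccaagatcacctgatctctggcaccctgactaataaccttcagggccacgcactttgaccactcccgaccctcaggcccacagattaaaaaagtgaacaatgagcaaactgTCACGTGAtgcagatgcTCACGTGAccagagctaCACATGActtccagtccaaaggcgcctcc
Gla: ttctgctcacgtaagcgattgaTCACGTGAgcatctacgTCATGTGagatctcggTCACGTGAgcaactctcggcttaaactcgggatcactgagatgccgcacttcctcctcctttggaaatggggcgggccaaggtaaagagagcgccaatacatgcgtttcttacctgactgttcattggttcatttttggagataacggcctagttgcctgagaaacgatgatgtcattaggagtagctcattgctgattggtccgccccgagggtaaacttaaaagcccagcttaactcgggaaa
Lgmn: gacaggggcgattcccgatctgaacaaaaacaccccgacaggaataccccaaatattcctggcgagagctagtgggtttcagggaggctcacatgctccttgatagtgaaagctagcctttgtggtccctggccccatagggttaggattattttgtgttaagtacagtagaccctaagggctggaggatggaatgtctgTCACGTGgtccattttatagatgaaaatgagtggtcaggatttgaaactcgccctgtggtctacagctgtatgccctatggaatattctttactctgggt
Mcoln1: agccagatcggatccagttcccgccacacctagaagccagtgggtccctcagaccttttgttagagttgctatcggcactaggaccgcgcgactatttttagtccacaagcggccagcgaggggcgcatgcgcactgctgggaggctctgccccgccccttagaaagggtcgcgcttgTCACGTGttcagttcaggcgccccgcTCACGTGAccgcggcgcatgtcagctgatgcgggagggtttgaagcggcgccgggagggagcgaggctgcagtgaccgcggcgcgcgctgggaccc

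Rises were seen in members with and without these letters. In siFem1b/Keap1 against siCont cells 10 of 12 members with TCACGTG and 21 of 25 without it rose, beside 33.8% of all genes, and their medians were 0.64 with it and 0.53 without it on the log2 scale. In siFem1b against siCont cells 7 of 12 members with it rose and 1 fell, and 16 of 25 without it rose and 3 fell, beside 30% and 32.1% of all genes. In siKeap1 against siCont cells 4 rose and 4 fell of the 12 with it, and 7 rose and 7 fell of the 25 without, beside 18.4% and 23.8% of all genes. Neu1, the glycan hydrolase with the largest rise in siFem1b/Keap1 cells, held neither TCACGTG nor TCATGTG in its window. Gla and Gaa, glycan hydrolases that also rose there, held TCACGTG. The search covered these windows alone, and the part of the letters in the changes was not tested.

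Sites for the siRNA seeds lay in the 3′ UTR of 5 members, searched in the most abundant protein-coding transcript of each gene (GENCODE M21). Matches outside the 3′ UTR, such as those of Neu1 for siKeap1 and Cd63 for siFem1b, are not listed. The 7 sites are given as 19 bases 5′ to 3′, with the bases that match the seed site of the siRNA in capitals and the position of the first base of the match counted from the start of the 3′ UTR.
Ppt1, siFem1b, base 567: atcctcagtaaCAGAATTa
Ppt1, siFem1b, base 1220: cattagcaccaCAGAATTc
Npc2, siFem1b, base 103: catatgatgaaCAGAATTt
Scarb2, siFem1b, base 2393: caaggcacagtCAGAATTg
Scarb2, siKeap1, base 879: cataggacagtGACACGGa
Sgsh, siKeap1, base 1653: gctgctgtacaGACACGGc
Gpr137b, siKeap1, base 934: tgtatgaggctGACACGGg

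For siKeap1 these were 3 of 45 members, beside 2.46% of 13313 genes searched, and all 3 (Gpr137b, Scarb2 and Sgsh) fell in siKeap1 against siCont cells. On the log2 scale Gpr137b fell by 0.19, Scarb2 fell by 0.24 and Sgsh fell by 0.30, beside 23.8% of all genes tested that fell. In siFem1b/Keap1 cells, which received the same siRNA, Gpr137b (0.34 ± 0.04, adjusted p = 8.1e-08) and Sgsh (0.21 ± 0.07, adjusted p = 0.01) rose against siCont and Scarb2 fell (-0.19 ± 0.05, adjusted p = 0.0012). Against siFem1b cells, Gpr137b rose by 0.90 in siFem1b/Keap1 cells and Scarb2 fell by 0.46, and Sgsh did not pass the test at 0.11 ± 0.07 (adjusted p = 0.21). For siFem1b they were also 3 of 45, beside 12.4% of genes. Ppt1 and Npc2 fell in both groups that received siFem1b, whereas Scarb2 rose in siFem1b cells. Lgmn, which fell to a similar extent as Ppt1 in siFem1b cells, held no siFem1b seed site. The part of these sites in the changes was not tested.

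The other genes of the pathway were followed in lists of lysosomal hydrolases, membrane proteins and proton pump subunits outside the 45, of inhibitors of cathepsins, of proteins that deliver hydrolases, and of the TFE factors with the mTORC1 axis. Beside the members, in siFem1b/Keap1 against siCont cells, 20 of 31 other hydrolases tested rose and 2 fell, 19 of 34 other membrane proteins rose and 6 fell, and 16 of 20 proton pump subunits rose and 1 fell. The cathepsin inhibitors rose in 7 of 9 cases with 0 falls, the delivery proteins in 10 of 28 with 7 falls, and the TFE and mTORC1 list in 14 of 27 with 7 falls. The background shares of 33.8% and 33.7% apply here too, so the delivery list lay near them while the hydrolases and the pump lay above. These lists hold genes that passed the filter through groups in which they were higher, among them Smpdl3a, Mcoln3 and Atp6v1c2. In siFem1b against siCont cells, where 30% of all genes rose and 32.1% fell, 16 of 31 other hydrolases rose and 4 fell, and 14 of 20 pump subunits rose and 2 fell. In siKeap1 against siCont cells, where 18.4% rose and 23.8% fell, 10 of 31 other hydrolases rose and 3 fell, and 5 of 20 pump subunits rose and 2 fell.

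**Figure D5:**
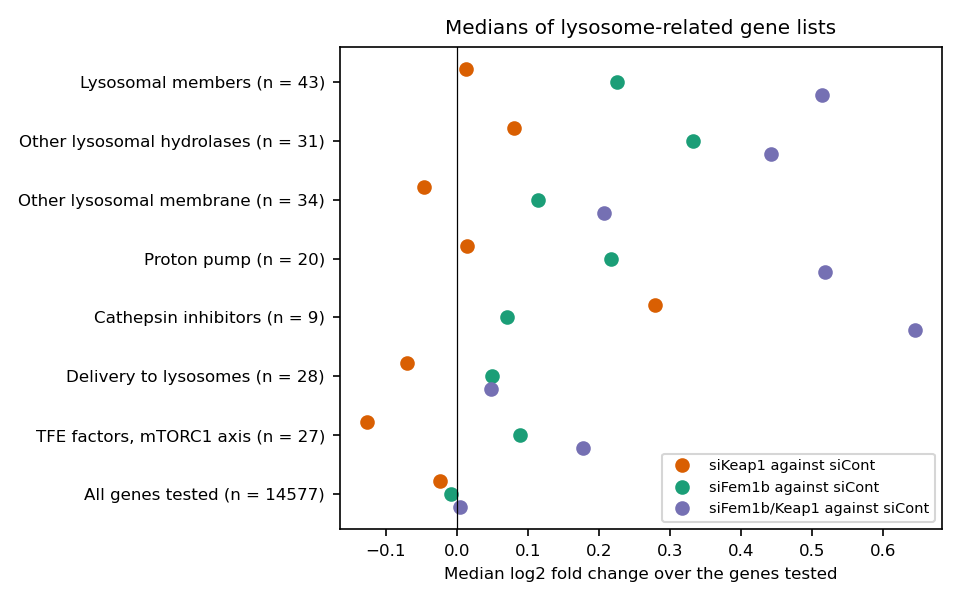
Median log2 fold change against siCont of the members, of 6 other lysosome-related lists and of all genes tested, for siKeap1, siFem1b and siFem1b/Keap1 cells. The siFem1b/Keap1 median is 0.51 for the members and 0.44 for the other hydrolases, against 0.01 for all genes tested.

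Among the other hydrolases, Cpq, a carboxypeptidase, averaged 8.15 ± 0.135 CPM in siKeap1 libraries, 19.4 ± 0.372 CPM in siFem1b libraries, 25.6 ± 0.434 CPM in siFem1b/Keap1 libraries, against 8.09 ± 0.535 CPM in siCont libraries (SD, n = 3 each), and its log2 fold change was 0.01 ± 0.07 (adjusted p = 0.88) in siKeap1 cells, 1.27 ± 0.06 (adjusted p = 3e-12) in siFem1b cells and 1.67 ± 0.06 (adjusted p = 3.4e-14) in siFem1b/Keap1 cells. Dpp7, a dipeptidyl peptidase, was 2.82-fold higher (adjusted p = 6e-14) and Man2b2, an alpha-mannosidase, 3.04-fold (adjusted p = 9.3e-14) in siFem1b/Keap1 cells. Gpnmb, a glycoprotein of lysosomes and melanosomes and a known TFE3 and MITF target, averaged 1.68 ± 0.188 CPM in siKeap1 libraries, 13.7 ± 0.216 CPM in siFem1b libraries, 28.1 ± 0.395 CPM in siFem1b/Keap1 libraries, against 2.06 ± 0.188 CPM in siCont libraries. Its log2 fold change was -0.30 ± 0.12 (adjusted p = 0.076) in siKeap1 cells, 2.72 ± 0.08 (adjusted p = 6.7e-15) in siFem1b cells and 3.76 ± 0.08 (adjusted p = 6.9e-17) in siFem1b/Keap1 cells, and it departed from the sum by 1.34 ± 0.13 (adjusted p = 1.4e-06). Of the membrane proteins, Abca2, a lipid transporter, reached 0.98 ± 0.05 (adjusted p = 2.3e-12) and the cystine exporter Ctns 1.02 ± 0.07 (adjusted p = 1.1e-10).

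The proton pump subunits Atp6v0a1 and Atp6v1b2 had log2 fold changes of 1.10 ± 0.04 (adjusted p = 5.4e-14) and 0.71 ± 0.04 (adjusted p = 4.4e-11) in siFem1b/Keap1 cells. Atp6v1c2, at 3.78 CPM there against 0.136 CPM in siCont libraries, had 4.76 ± 0.27 (adjusted p = 1.2e-11). Since Atp6v1c2 passed the filter through the groups in which it was higher, its call is no support for a rise. The cathepsin inhibitors moved with different siRNAs. Serpinb1a averaged 15.5 CPM in siKeap1, 62.6 CPM in siFem1b, 61.3 CPM in siFem1b/Keap1 and 16.9 CPM in siCont libraries, whereas Cst6, a cystatin that inhibits legumain and cathepsins, averaged 46.7 CPM in siKeap1, 21.1 CPM in siFem1b, 65.4 CPM in siFem1b/Keap1 and 20.5 CPM in siCont libraries. Serpinb9 reached 0.92 ± 0.07 (adjusted p = 3.3e-09) in siFem1b/Keap1 cells. Of the delivery proteins, Igf2r, the large mannose 6-phosphate receptor, averaged 46.4 ± 1.52 CPM in siKeap1 libraries, 83.5 ± 3.20 CPM in siFem1b libraries, 103 ± 2.19 CPM in siFem1b/Keap1 libraries, against 49.3 ± 1.80 CPM in siCont libraries with a log2 fold change of -0.09 ± 0.04 (adjusted p = 0.12) in siKeap1 cells, 0.76 ± 0.04 (adjusted p = 2.9e-11) in siFem1b cells and 1.06 ± 0.04 (adjusted p = 1.5e-13) in siFem1b/Keap1 cells. Gnptg, a subunit of the enzyme that makes the mannose 6-phosphate tag, reached 1.34 ± 0.07 (adjusted p = 5.2e-12) and the adaptor subunit Ap3b1 0.61 ± 0.04 (adjusted p = 1.6e-10) in siFem1b/Keap1 cells. These 3 are among 10 of 28 delivery proteins that rose there, while 7 fell. M6pr, another mannose 6-phosphate receptor, averaged 197 CPM in siKeap1, 126 CPM in siFem1b, 154 CPM in siFem1b/Keap1 and 175 CPM in siCont libraries.

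The TFE factors were measured in the same libraries. Tfeb had log2 fold changes of -0.01 ± 0.08 (adjusted p = 0.91) in siKeap1 cells, 0.26 ± 0.08 (adjusted p = 0.01) in siFem1b cells and 0.21 ± 0.08 (adjusted p = 0.03) in siFem1b/Keap1 cells, Tfe3 of 0.44 ± 0.04 (adjusted p = 3.1e-08) in siKeap1 cells, 0.05 ± 0.04 (adjusted p = 0.32) in siFem1b cells and 0.25 ± 0.04 (adjusted p = 1.6e-05) in siFem1b/Keap1 cells and Mitf, at 10.2 CPM or less, of 0.87 ± 0.08 (adjusted p = 3.4e-08) in siKeap1 cells, 0.24 ± 0.08 (adjusted p = 0.013) in siFem1b cells and 0.55 ± 0.08 (adjusted p = 4.4e-06) in siFem1b/Keap1 cells. Tfe3 and Mitf were thus highest in siKeap1 libraries. RNA levels do not measure the phosphorylation or location of these factors, and their part in the lysosomal changes was not tested. Flcn, whose product restrains these factors, averaged 33.0 ± 0.837 CPM in siKeap1 libraries, 51.5 ± 1.91 CPM in siFem1b libraries, 56.2 ± 2.06 CPM in siFem1b/Keap1 libraries, against 34.1 ± 0.605 CPM in siCont libraries. For Flcn the log2 fold change was -0.05 ± 0.05 (adjusted p = 0.44) in siKeap1 cells, 0.59 ± 0.05 (adjusted p = 1.5e-09) in siFem1b cells and 0.72 ± 0.05 (adjusted p = 5.6e-11) in siFem1b/Keap1 cells. Its partner Fnip2 was at -0.53 ± 0.06 (adjusted p = 5.7e-07) in siKeap1 cells, -0.42 ± 0.06 (adjusted p = 4.3e-06) in siFem1b cells and -0.95 ± 0.06 (adjusted p = 6.9e-11) in siFem1b/Keap1 cells. Fnip1 was at -0.27 ± 0.07 (adjusted p = 0.0061) in siKeap1 cells, -0.08 ± 0.07 (adjusted p = 0.31) in siFem1b cells and -0.02 ± 0.07 (adjusted p = 0.78) in siFem1b/Keap1 cells. Mtor, the kinase of mTORC1, was at -0.73 ± 0.04 (adjusted p = 7.9e-12) in siFem1b/Keap1 cells.

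Several members share exon sequence with genes on the opposite strand, and the strand setting of the authors' counting is not given in the sources used here. Ctsb overlaps Fdft1 over 774 bases, Ctsa overlaps Pltp and Neurl2, Sgsh overlaps Card14, Npc1 overlaps Rmc1, and Ppt1 overlaps 129 bases of Cap1, which averaged 593 CPM beside 53.6 CPM for Ppt1. Reads from these stretches could have been counted for either gene, and the size of this was not measured.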

How the data were processed

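The authors deposited, per library and run, estimated counts and TPM for 118489 mouse transcripts, made with kallisto 0.44.0 on mm10 per the submitters' processing notes. Transcripts were matched to GENCODE M21 (98.5%), and the unmatched ones, with 0.606% to 0.640% of counts, were left out. Deposited counts were summed per gene and over both runs and rounded, and TPM were summed per gene. Genes passing filterByExpr (14577) were fitted for all 12 libraries with TMM scaling and robust quasi-likelihood tests (edgeR 4.0.16, R 4.3.3), 2-sided, adjusted within each of 6 comparisons. The filter keeps a gene expressed in a single group. Per role and comparison, up to 3 members of smallest p are given by library, with Mcoln1, which passed nowhere. In the other lists, 3 genes of smallest p in siFem1b/Keap1 cells, the TFE and FLCN genes, Myog and Ckm are named. M6pr and the genes named from the marker lists were chosen after their values were seen. Members and lists were chosen with earlier results of these data known. Alternatives (23) included other scalings, DESeq2 1.42.0, other filters, single runs, a replicate block and leaving out each library.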

Additional observations from a re-analysis of the deposited data

Results flagged for a closer look

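The effect of siKeap1 differed between cells with and without siFem1b for 20 members, by the interaction test across all genes at an adjusted p under 0.05, with 18 values above 0 and 2 below, beside 6.11% and 5.32% of all genes tested. The value given is the effect with siFem1b minus the effect without it, on the log2 scale. Among the membrane proteins it was 1.09 for Gpr137b, with an effect of siKeap1 of 0.90 in cells with siFem1b and -0.19 in cells without it, and it was 0.29 for Npc1 and -0.22 for Scarb2. Among the proteases it was 0.47 for Tpp1, with effects of 0.31 with and -0.16 without siFem1b, 0.39 for Ctsa, 0.57 for Ctsh, 0.26 for Ctsl and -0.18 for Ctsd. Among the glycan hydrolases it was 0.60 for Neu1, with effects of 0.35 with and -0.25 without siFem1b, 0.56 for Gla and 0.23 for Hexa. Among the glycosaminoglycan enzymes it was 0.79 for Idua, 0.49 for Naglu, 0.44 for Arsb, 0.41 for Sgsh and 0.21 for Gusb. Among the lipid enzymes and activators it was 0.53 for Grn, 0.43 for Arsa, 0.41 for Galc and 0.19 for Asah1. All but Ctsd and Scarb2 were positive. The largest adjusted p among them was 0.047, for Ctsd.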

How the results depend on the processing

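The counts of members called kept within 1.5 times of the reported value under all alternatives run, apart from these. With library totals alone, 3 members fell in siFem1b/Keap1 against siKeap1 cells (5 reported). With the first run alone, 10 members lay above the sum of the single depletions and 1 below (18 and 2 reported). The count below the sum was 1 with the replicate block, and 0 with the close pairs added or with an adjusted p under 0.01. Leaving out each library in turn gave 11 to 14 members higher and 11 to 14 lower for siKeap1, 24 to 26 and 5 to 6 for siFem1b, and 34 to 37 and 5 for siFem1b/Keap1, each against siCont. It gave 30 to 33 higher and 4 to 5 lower against siKeap1, 28 to 31 and 1 to 2 against siFem1b, and 14 to 19 above and 0 to 2 below the sum for the interaction. Of the 90 gene results named by rule, 2055 alternative values were computed, of which 2025 had the same direction and side of the threshold, 30 lost the call and 0 reversed. The lost calls were of Galc in siKeap1 cells, Galns in siFem1b cells, and Ctsh, Hexa, Idua, Npc1 and Scarb2 in the interaction, and their cause was not tested. Libraries with the same replicate number showed no shared deviation (correlations of -0.08 to 0.12, against -0.16 to 0.17 for different numbers, with 1 of 18 pairs over 0.1). Such values cannot show whether same-numbered libraries were prepared together, which the labels do not say. The replicate block gave 36 members higher and 5 lower for siFem1b/Keap1 against siCont. Depth limits Ctsc, Ctsf, Cln3 and Cd68, and Ctsk and Ctss were too low to be tested.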

Other observations

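Lamp2 is made as transcripts that differ in their last exon, and the estimated split between the main pair differed between groups. Lamp2-201 held 51.4% of the gene's TPM in siKeap1, 52.1% in siFem1b, 55.8% in siFem1b/Keap1 and 45.4% in siCont libraries, and Lamp2-202 held most of the rest. The ranges over libraries were 52.8% to 60.3% for Lamp2-201 in siFem1b/Keap1 and 40.9% to 47.8% in siCont libraries, which do not overlap, while those of siFem1b (42.4% to 60.7%) spanned both. Gaa-201, a shorter transcript of Gaa, held 37.8% of the gene's TPM in siFem1b/Keap1 and 26.5% in siCont libraries. These shares rest on an estimate that divides reads common to several transcripts, and they were not tested.

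The 9 epithelial markers had a summed level, mostly Krt19 and Krt14, of 158 CPM in siFem1b/Keap1 against 45.2 CPM in siCont libraries. Of 10 osteoclast markers, Itgb3 (1.22-fold, adjusted p = 3e-05) and Tnfrsf11a (1.69-fold, adjusted p = 0.011) were higher in siFem1b/Keap1 than in siCont cells by edgeR's test. The defining genes Acp5, Calcr, Dcstamp, Mmp9 and Oscar averaged 0.307 CPM or less in each group, and the list summed, mostly Itgb3 and Nfatc1, to 103 CPM in siFem1b/Keap1 against 87.9 CPM in siCont libraries. The part of other cell states in the lysosomal changes was not tested.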
